A study of Homo sapiens with 6 samples.

Results

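The Krüppel-like factors (KLFs) are DNA-binding proteins that recognise GC-rich and CACCC elements through zinc fingers at their C-terminal end. They switch target genes on or off depending on the partner that their N-terminal part recruits, and they compete with the related SP factors for the same elements. In epithelial and endothelial cells they are known for setting the balance between proliferation, differentiation and stress responses, and several of them are induced within a short time by growth factors, TGF-β, steroid hormones or mechanical stress.

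The genes KLF2, KLF3, KLF4, KLF5, KLF6, KLF7, KLF9, KLF10, KLF11 and KLF13 were taken from the count table by gene name. These were 10 of the 58735 genes listed, and all 10 had enough counts to be tested. RNA had been sequenced from MDA-MB-231, a TNBC cell line, as parent cells (labelled WT, 3 libraries) and as ADR resistant cells (ADRr, named MB_ADR12 in the labels, 3 libraries). According to the study's methods, ADRr cells were derived from the parent line by stepwise exposure to Adriamycin (ADR, a topoisomerase-poisoning anthracycline) and isolated by limiting dilution, so features of the isolated clone and of resistance cannot be told apart here. The drug content of the medium at harvest was not given in the sources used here, and nothing said whether the libraries of a group came from separate cultures, so p-values measure the spread between these libraries, which may be technical. The series text mentions 3 time points that no sample label names.

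Total counts were 15983985 to 18272314 per library. In the cell line check, ESR1 had at most 1 count in any library and PGR had 0, while VIM had at least 5666 counts. The 4 genes known as high in this line (VIM, CD44, AXL and MSN) summed to 3612 to 3700 CPM in parent cells and 3645 to 3685 CPM in ADRr cells. Within this sum CD44 rose by 0.80 on the log2 scale, VIM (-0.56) and AXL (-0.62) were called lower, and MSN (0.13) was not called. The 8 luminal and epithelial genes summed to 983 to 1097 CPM in parent cells and 417 to 448 CPM in ADRr cells. KRT8 (-2.00) and KRT18 (-0.65) held most of this sum. Of the 6 that were tested 4 were called lower, while EPCAM (1.10) was called higher and GATA3 (-0.22) was not called. By the rule given below, 29.6% of all tested genes were called lower and 29.2% higher. A count of 0 allows up to 3 counts, which covers counting error only. Of the markers of other cell types, 8 of 9 leukocyte and blood genes were under 1 CPM (the count scaled to library size) in every library, and their summed level was 5.01 to 7.62 CPM in parent cells and 5.25 to 6.29 CPM in ADRr cells. CD14 held most of this level and was not called. PTPRC had at most 2 counts and TYROBP and HBB had 0. The 8 fibroblast genes summed to 161 to 164 CPM in parent cells and 28.9 to 32.2 CPM in ADRr cells, with DCN at 0. The 4 that were tested were called lower, which were COL1A2 (-7.47), PDGFRB (-2.90), LUM (-0.67) and COL1A1 (-0.62). COL1A2 had at least 1060 counts in each parent library and at most 11 in any ADRr library. The part of these shifts in the results below was not tested.

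Calls needed both a Benjamini-Hochberg adjusted p no higher than 0.05 over the 15242 tested genes (edgeR, quasi-likelihood test) and a change of 1.2-fold or more, up or down. By this rule 7 of the 10 KLF genes were called higher in ADRr cells, which were KLF3, KLF4, KLF6, KLF9, KLF10, KLF11 and KLF13. Over all tested genes 29.2% were called higher and 29.6% lower, 58.8% in either direction. No KLF gene of the 10 was called lower, and at an unadjusted p under 0.05 the number lower was 0 by edgeR and also 0 by DESeq2. KLF2, KLF5 and KLF7 were not called. The median log2 fold change of the 10 genes was 1.13, and that of all tested genes was -0.0061. For 8 of the 10 genes the lowest ADRr value exceeded the highest parent value, an order found in 34.5% of all tested genes. The reverse order was found in 34.7%, and 69.2% of tested genes had groups that did not overlap in either direction. For 1 gene alone, permuting 3 against 3 libraries exactly gives no p smaller than 0.1, and edgeR reaches smaller values by pooling information on the spread across genes.

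The DNA before a RefSeq start (GRCh38.p14) of 4 of these genes is shown first, since the KLF proteins themselves bind GC-rich elements of this kind. They are the 3 genes with the largest increase, KLF4, KLF13 and KLF6, and KLF2, which was not called. Each line holds up to 250 bases, 5′ to 3′ on the strand of the gene, and stops short of any exon of that gene in GENCODE 29, which left 178 bases for KLF6 and 241 for KLF2. Capitals mark the GC box (GGGCGG or its reverse complement CCGCCC) and the CACCC box (CACCC or GGGTG). The stretches are chr9:107489770-107490019 on the minus strand for KLF4, chr15:31326585-31326834 on the plus strand for KLF13, chr10:3785282-3785459 on the minus strand for KLF6 and chr19:16324576-16324816 on the plus strand for KLF2. The KLF4 stretch lies inside the gene as the count table gives it. It is intronic in 1 GENCODE transcript of KLF4, and the other 5 transcripts start downstream of it.
KLF4: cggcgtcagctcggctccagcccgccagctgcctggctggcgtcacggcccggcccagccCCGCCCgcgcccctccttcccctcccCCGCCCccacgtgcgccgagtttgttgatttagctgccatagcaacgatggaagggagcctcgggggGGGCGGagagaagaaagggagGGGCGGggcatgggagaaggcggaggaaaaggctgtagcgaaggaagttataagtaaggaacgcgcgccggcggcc
KLF13: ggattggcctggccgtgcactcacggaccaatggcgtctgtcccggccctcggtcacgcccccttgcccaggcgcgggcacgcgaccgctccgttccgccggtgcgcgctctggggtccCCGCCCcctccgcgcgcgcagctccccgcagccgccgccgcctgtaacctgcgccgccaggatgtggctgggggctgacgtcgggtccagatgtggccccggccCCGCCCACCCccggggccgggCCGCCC
KLF6: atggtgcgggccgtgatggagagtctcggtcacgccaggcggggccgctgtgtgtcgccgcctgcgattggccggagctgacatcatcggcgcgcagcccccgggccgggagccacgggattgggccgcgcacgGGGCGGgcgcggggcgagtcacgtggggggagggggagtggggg
KLF2: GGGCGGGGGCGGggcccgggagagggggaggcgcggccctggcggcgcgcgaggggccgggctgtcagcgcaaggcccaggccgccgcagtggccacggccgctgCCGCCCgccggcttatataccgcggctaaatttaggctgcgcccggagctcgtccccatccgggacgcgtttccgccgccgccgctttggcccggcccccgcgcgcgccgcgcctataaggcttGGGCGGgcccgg

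The KLF4 stretch held 4 GC boxes, that of KLF13 had 3, that of KLF6 had 1 and that of KLF2 had 4. KLF13 was the one of the 4 with a CACCC box, a single match that shares a base with a GC box. The stretches differ in length and in their place relative to the annotated gene, so these numbers are not compared. RefSeq starts were matched for 8 of the 10 genes, with 13 windows of 300 bases in all (250 before and 50 after a start). KLF3 and KLF10 were not matched. A GC box was found on either strand in 8 of the 13 windows and a CACCC box in 7 of the 13. Some genes have several windows that may share sequence. Among all 35116 windows of this length, 45% held a GC box and 59.9% a CACCC box. A STAT element (TTCNNNGAA) was present in 1 of the 13 windows, a window of KLF7, against 7.66% of all windows, and an AP-1 element (TGANTCA) in none of them, against 7.71%. Such matches describe letters and are not binding sites.

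KLF4 (ENSG00000136826, chromosome 9, 107484852 to 107490482, minus strand, GRCh38) showed the largest increase of the 10. It is a reprogramming factor of pluripotent stem cells that also acts in epithelial differentiation and growth arrest. The counts were 505, 484 and 515 in parent replicates 1 to 3 and 3234, 2868 and 3211 in ADRr replicates 1 to 3. The groups lay far apart, and each was tight within itself. Per length, the level rose from 8.05 ± 0.199 to 47.4 ± 0.723 FPKM (SD, n = 3 libraries each), a difference of 2.56 on the log2 scale (standard error, SE, 0.06, adjusted p = 1.17e-19, edgeR) or 5.88-fold (95% confidence interval 5.39 to 6.41). KLF4 thereby ranked 205th among the tested genes by log2 fold change.

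KLF6 (ENSG00000067082, chromosome 10, 3775996 to 3785281, minus strand) is a broadly expressed factor known for inducing the cell cycle inhibitor p21. It had the highest level of the 10 genes in both groups. Its counts were 4591, 4192 and 4833 in the parent libraries and 15377, 13933 and 15465 in the ADRr libraries, with no overlap. The level rose from 43.4 ± 1.02 to 136 ± 0.739 FPKM (SD, n = 3), 3.13-fold (2.93 to 3.34, log2 fold change 1.64, SE 0.05, adjusted p = 1.84e-18, edgeR). In ADRr cells 98.5% of tested genes had a lower mean FPKM than KLF6, and in parent cells 93.6%.

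KLF2, the shear stress factor of endothelial cells and a keeper of T cell quiescence, overlaps with KLF4 in function, and its RNA did not follow that of KLF4. KLF2 (ENSG00000127528, chromosome 19, 16324817 to 16327874, plus strand) had 281, 211 and 302 counts in the parent libraries and 273, 269 and 303 in the ADRr libraries, in replicate order. The groups overlapped, and parent replicate 2 was the lowest library. The fold change was 1.01 (95% confidence interval 0.864 to 1.19, adjusted p = 0.887, edgeR), an interval that leaves out changes above 1.19-fold. The sign of this small value turned when parent replicate 2 (log2 -0.093) or ADRr replicate 3 (log2 -0.0035) was left out.

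KLF5 promotes proliferation of basal epithelial cells and is well known in TNBC. KLF5 (ENSG00000102554, chromosome 13, 73054976 to 73077542, plus strand) had 676, 672 and 738 counts in parent cells and 811, 701 and 852 in ADRr cells. After normalization the ADRr libraries lay just above the parent ones, at 11.3 ± 0.493 against 10.5 ± 0.213 FPKM (SD, n = 3). This was below the threshold for a call, at 1.08-fold (0.97 to 1.19, adjusted p = 0.205, edgeR). KLF7 (ENSG00000118263, chromosome 2, 207074137 to 207167267, minus strand), a factor of neuronal development, had 126, 109 and 117 counts in parent cells and 167, 129 and 128 in ADRr cells. Its groups overlapped and it was not called, at 1.14-fold (0.923 to 1.42, adjusted p = 0.259, edgeR).

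**Figure D1:**
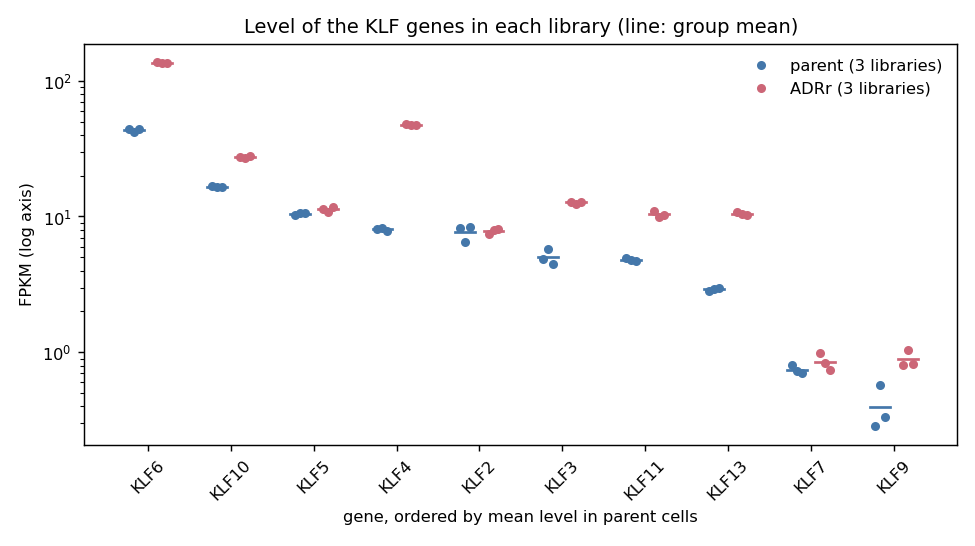
Level of each of the 10 KLF genes in FPKM (log axis) in the 3 parent (blue) and 3 ADRr (red) libraries, with a line at each group mean and genes ordered by their parent mean. KLF4 moves from 8.05 FPKM, close to KLF2, to 47.4 FPKM, while KLF5, KLF2 and KLF7 stay near their parent level.

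The order of the 10 levels changed between the groups. In parent cells it ran KLF6, KLF10, KLF5, KLF4, KLF2, KLF3, KLF11, KLF13, KLF7 and KLF9. The libraries of KLF4 and KLF2 overlapped there, as did those of KLF3 and KLF11. In ADRr cells KLF4 was at rank 2 and KLF3 at rank 4, ahead of KLF5, KLF13, KLF11 and KLF2, and the overlapping neighbours were KLF5 and KLF13, KLF13 and KLF11, and KLF9 and KLF7. The summed level of the 10 genes was 98.7 to 101 FPKM in parent libraries and 263 to 268 FPKM in ADRr libraries, a ratio of means of 2.65. KLF6 took 43.3 ± 0.513% of this sum in parent cells and 51.3 ± 0.321% in ADRr cells (SD, n = 3). The share of KLF4 was 8.04 ± 0.239% in parent cells and 17.9 ± 0.122% in ADRr cells. KLF5 held 10.5 ± 0.339% of the parent sum and 4.26 ± 0.171% of the ADRr sum, although its own level was close in both. In bulk RNA, more cells with a transcript and more transcript per cell cannot be told apart.

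KLF3 is mainly a repressor, which recruits the corepressor CtBP. KLF3 (ENSG00000109787, chromosome 4, 38664196 to 38701042, plus strand) had 522, 585 and 510 counts in the parent libraries and 1482, 1310 and 1497 in the ADRr libraries, so that the groups were well apart. It rose from 5.04 ± 0.635 to 12.7 ± 0.212 FPKM (SD, n = 3), 2.51-fold (2.24 to 2.81, log2 fold change 1.33, SE 0.08, adjusted p = 9.22e-13, edgeR). Its antisense neighbour KLF3-AS1 overlaps the start of the gene and had 2 to 7 counts in parent libraries and 7 to 10 in ADRr libraries. The strand setting of the counting was not given in the sources used here.

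KLF9, KLF10, KLF11 and KLF13 belong to the KLFs that bind the Sin3 corepressor, a group that also holds KLF14 and KLF16. Each of these 4 rose, while KLF14 had too few counts to be tested and KLF16, described further on, lay at the threshold. KLF13 (ENSG00000169926, chromosome 15, 31326855 to 31435665, plus strand), known in T cells as an activator of CCL5, had the second largest increase of the 10 genes. It had 451, 442 and 505 counts in the parent libraries and 1868, 1652 and 1785 in the ADRr libraries, and rose 3.61-fold (3.28 to 3.97, log2 fold change 1.85, SE 0.07, adjusted p = 1.63e-16, edgeR). KLF11 (ENSG00000172059, chromosome 2, 10042849 to 10054836, plus strand), a TGF-β inducible factor, had 388, 357 and 386 counts in parent cells and 924, 761 and 871 in ADRr cells. It rose 2.14-fold (1.91 to 2.40, adjusted p = 3.23e-11, edgeR). Its relative KLF10 (ENSG00000155090, chromosome 8, 102648779 to 102655902, minus strand) had 1128, 1067 and 1198 counts in parent cells and 2017, 1793 and 2080 in ADRr cells. KLF10 was the second most abundant of the 10 in parent cells, and its rise of 1.65-fold (1.52 to 1.79, adjusted p = 1.79e-10, edgeR) was the smallest among the genes called.

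KLF9 (ENSG00000119138, chromosome 9, 70384597 to 70414624, minus strand), which glucocorticoids and thyroid hormone induce, was the least abundant of the 10 in parent cells. It had 25, 48 and 31 counts there and 76, 90 and 79 in ADRr cells, with parent replicate 2 above the other two. The groups did not overlap, and KLF9 rose 2.23-fold (1.55 to 3.21, log2 fold change 1.16, SE 0.25, adjusted p = 3.4e-04, edgeR). Low counts left this estimate the least precise of the 10, and it was 1.5 on the log2 scale without parent replicate 2.

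**Figure D2:**
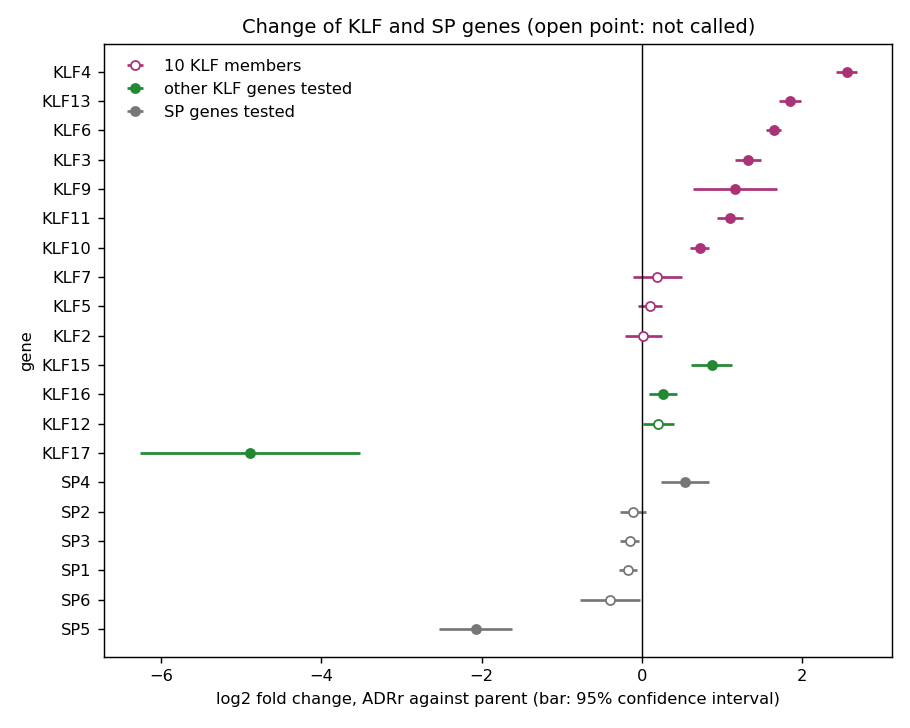
Log2 fold change in ADRr against parent cells with its 95% confidence interval (bars) for the 10 KLF genes (purple), the other tested KLF genes (green) and the tested SP genes (grey), where open points were not called. The 10 KLF genes lie at or to the right of 0, up to 2.56 for KLF4, and the point of KLF17 rests on at most 1 count in any ADRr library and is no bound.

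The KLF genes outside the 10 had mixed directions. The table lists KLF1 to KLF18, and 14 of these 18 genes were tested. KLF15, a metabolic and glucocorticoid-induced factor, had 119, 102 and 131 counts in parent cells and 228, 215 and 235 in ADRr cells, and rose 1.83-fold (1.53 to 2.19, adjusted p = 1.92e-06, edgeR). KLF16 was called higher at 1.2-fold (1.07 to 1.36, adjusted p = 0.00786, edgeR), right at the fold threshold, and lost the call in 5 of 15 alternatives. Without parent replicate 1 its log2 fold change was 0.18, without parent replicate 2 it was 0.25, and without ADRr replicate 2 it was 0.20. KLF12, a repressor that binds CtBP, was not called at 1.15-fold (1.01 to 1.31, adjusted p = 0.0506, edgeR).

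KLF17 (ENSG00000171872, chromosome 1, 44118850 to 44135140, plus strand) went the other way. It is known as a suppressor of metastasis in breast cancer. It had 18, 23 and 26 counts in the parent libraries and 0, 1 and 1 in the ADRr libraries. With the ADRr libraries set to a floor of 3 counts each, KLF17 was at least 7.64-fold lower in ADRr cells. KLF8 had at most 10 counts and KLF14 at most 12 in any library, which was too few to be tested, and KLF1 and KLF18 had 0 in each. The 10 pseudogenes named for KLF genes had 0 counts throughout.

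Of the 9 SP genes, which bind the same boxes, 6 were tested. SP1 and SP3, the ubiquitous members, were not called, with log2 fold changes of -0.17 (SE 0.06, adjusted p = 0.0108, edgeR) and -0.15 (SE 0.06, adjusted p = 0.0276, edgeR), both below the fold threshold. SP2 (-0.11) and SP6 (-0.40) were also not called, though SP6 was called at -0.53 without parent replicate 2. SP4 rose by 0.54 (adjusted p = 0.00232, edgeR). SP5, a target of WNT signalling, had 119, 98 and 153 counts in parent cells and 40, 22 and 30 in ADRr cells, a difference of -2.07 on the log2 scale (SE 0.22, adjusted p = 1.99e-08, edgeR). The median log2 fold change of the tested SP genes was -0.16 against 1.13 for the 10 KLF genes.

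Some of the KLF genes lie in stretches of the genome whose other genes moved too. For each KLF gene, the 50 nearest tested genes on the chromosome were taken. Over all tested genes 29.2% were called higher and 29.6% lower. Around KLF11, on chromosome 2, 33 of the 50 were called higher and 4 lower, and the median log2 fold change of the 50 was 0.65. KLF11 lay 0.45 above this median, and 13 of the 50 neighbours had a larger log2 fold change. Around KLF6, on chromosome 10, 30 neighbours were called higher and 0 lower, with a median of 0.46. KLF6 lay 1.18 above it, and 2 neighbours exceeded it. KLF10 stood among genes that were mostly lower, with 27 of 50 called lower and 4 higher. The median there was -0.39, from which KLF10 differed by 1.11. KLF4 and KLF13 exceeded all 50 of their neighbours, whose medians were 0.15 and 0.04. The part of the neighbourhood in the change of KLF11 and KLF6 was not tested.

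**Figure D3:**
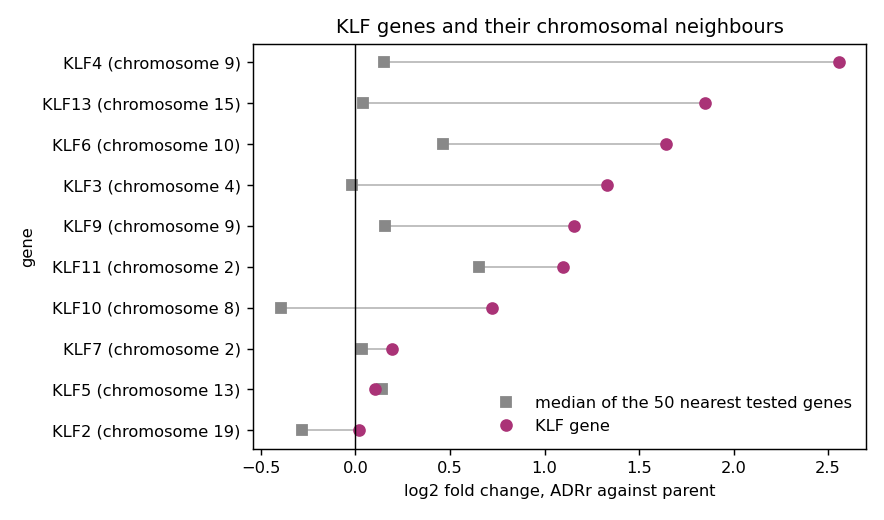
Log2 fold change in ADRr against parent cells of each KLF gene (circle) and the median of the 50 tested genes nearest to it on its chromosome (square). The distance is widest for KLF4, at 2.40, while KLF11 lies 0.45 above a raised neighbourhood and KLF10 1.11 above a lowered one.

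KLF proteins act through corepressors and coactivators. Of 11 such genes, 4 were called higher (36.4%), 4 lower (36.4%) and 3 were not called. Over all tested genes the shares were 29.2% higher and 29.6% lower. CTBP2, a partner of KLF3, KLF8 and KLF12, had 1060, 1058 and 1126 counts in parent cells and 2644, 2344 and 2746 in ADRr cells, a difference of 1.18 on the log2 scale (SE 0.06, adjusted p = 2.87e-14, edgeR). Its paralog CTBP1 fell by 0.88 (adjusted p = 3.2e-11, edgeR), with 2275, 2086 and 2576 counts in parent cells and 1307, 1181 and 1491 in ADRr cells. For the Sin3 scaffold of KLF9, KLF10, KLF11 and KLF13, SIN3B rose by 0.62, while its paralog SIN3A was not called at -0.10. The Sin3 complex subunits SAP30 (-0.94) and HDAC1 (-0.82) fell, while SAP18 (0.19) and HDAC2 (-0.14) were not called. The acetyltransferase KAT2B fell by 1.16 on the log2 scale, and EP300 (0.51) and CREBBP (0.30) rose.

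Of 7 genes that control the turnover of KLF proteins, 4 were called lower (57.1%) and 2 higher (28.6%). Among all tested genes these shares were 29.6% and 29.2%. BAP1, a deubiquitinase that stabilises KLF5, fell by 0.97 (adjusted p = 2e-12, edgeR), with 2691, 2490 and 2981 counts in parent cells and 1558, 1401 and 1416 in ADRr cells. The ubiquitin ligase genes VHL (-0.64), FBXW7 (-0.35) and WWP1 (-0.32) also fell, and WWP1 is a ligase for KLF5. FBXO32, a ligase for KLF4, rose by 0.32, as did SIAH1 (0.32), and BTRC was not called. KLF protein itself was not measured here.

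The pathways upstream of individual KLF genes gave no common direction. The kinase ERK5 and the MEF2 factors induce KLF2 and KLF4. Of their 6 tested genes, 2 were called higher (MEF2D at 0.70 and MEF2A at 0.32) and 2 lower (MAP2K5 at -0.56 and MAP3K3 at -0.43). MAPK7, which encodes ERK5 itself, was not called at 0.21. In the glucocorticoid list, 2 of 5 tested genes were called higher and 0 lower. The shares higher and lower were 33.3% and 33.3% for ERK5 and MEF2 and 40% and 0% for the glucocorticoid list. They were 29.2% and 29.6% over all tested genes. PER1, with 74, 115 and 98 counts in parent cells and 258, 281 and 278 in ADRr cells, rose by 1.43, and TSC22D3 rose by 1.04. The receptor NR3C1 was not called at 0.24, nor were FKBP5 (-0.07) and SGK1 (0.12). Among the reprogramming partners of KLF4, MYC rose by 0.95 (SE 0.05, adjusted p = 1.56e-13, edgeR). POU5F1 had at most 26 counts and was not called, SOX2 had at most 2 counts, and NANOG and LIN28B had 0.

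Most of the listed target genes of KLF proteins were higher in ADRr cells. The list was chosen with earlier results of these data known. It holds both genes that KLF proteins induce and genes they repress, so its share is a description and no test. Of 24 listed, 20 were tested. Of these, 13 (65%) were called higher and 5 (25%) lower, beside 29.2% and 29.6% of all tested genes, and 2 were not called. The median log2 fold change of the 20 was 1.24, beside -0.0061 over all tested genes. Most of these genes also respond to other factors, whose part in the changes was not tested. The cell cycle inhibitor CDKN1A (p21), which KLF4 and KLF6 induce, had 635, 636 and 744 counts in parent cells and 5377, 4874 and 5448 in ADRr cells. It rose by 2.89 on the log2 scale (SE 0.06, adjusted p = 8.83e-21, edgeR). CDKN1C (p57) rose by 1.99, whereas CDKN1B (p27) fell by 0.32. The cyclin gene CCNB1, which KLF4 represses, fell by 0.94. CCND1 was not called at -0.26 (adjusted p = 2.44e-05, edgeR), just short of the fold threshold. Its ADRr libraries all lay below the parent ones after normalization.

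CCL5, the chemokine gene whose promoter KLF13 binds, and TXNIP, an inhibitor of thioredoxin, had the highest log2 fold changes of the list. The CCL5 counts were 27, 14 and 13 in parent cells and 301, 327 and 365 in ADRr cells, a difference of 4.12 on the log2 scale (SE 0.19, adjusted p = 1.88e-14, edgeR). TXNIP had 885, 893 and 962 counts in parent cells and 15881, 14197 and 15464 in ADRr cells, a difference of 3.98 on the log2 scale (SE 0.05, adjusted p = 9.68e-24, edgeR). The intervals of the 2 genes overlapped (3.72 to 4.52 for CCL5 and 3.87 to 4.09 for TXNIP), and their order turned without parent replicate 3, where CCL5 was at 3.89 and TXNIP at 3.98. The KLF6 targets ATF3 (2.12), ENG (1.5) and PLAU (1.35) rose as well. LGALS3, which KLF3 represses in other cells, rose by 1.00, and ODC1, which KLF4 represses, rose by 1.35. CDH1, a target that KLF4 and KLF6 induce, fell by 1.07, TNFAIP2, a KLF5 target, fell by 1.09, and MAOA fell by 1.00. PTGES, another KLF5 target, was not called at 0.10. SMAD7 (0.62) rose, and CDH5, IVL, FGFBP1 and DIO1 had too few counts to be tested. No direction of control by a KLF is given here for TXNIP, MAOA and SMAD7. Their changes are therefore not set against those of the KLF genes.

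The endothelial targets shared by KLF2 and KLF4 that had enough counts to be tested were also higher. THBD, which encodes thrombomodulin, had 2251, 2183 and 2623 counts in parent cells and 7110, 6796 and 7230 in ADRr cells, and rose by 1.51 (SE 0.05, adjusted p = 9.14e-17, edgeR). S1PR1, a receptor for sphingosine 1-phosphate, had 119, 111 and 120 counts in parent cells and 593, 502 and 570 in ADRr cells, and rose by 2.17. NOS3 rose by 1.12 (adjusted p = 0.0266, edgeR) from 4, 11 and 24 counts to 31, 19 and 40, and its groups overlapped. Of the 8 endothelial markers, 7 were under 1 CPM in every library, with CDH5 at most 2 counts and ERG at most 1. Their summed level was 43.7 to 54.6 CPM in parent cells and 132 to 139 CPM in ADRr cells, and ROBO4 held most of it, with 699 to 961 counts in parent cells and 2206 to 2456 in ADRr cells.

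**Figure D4:**
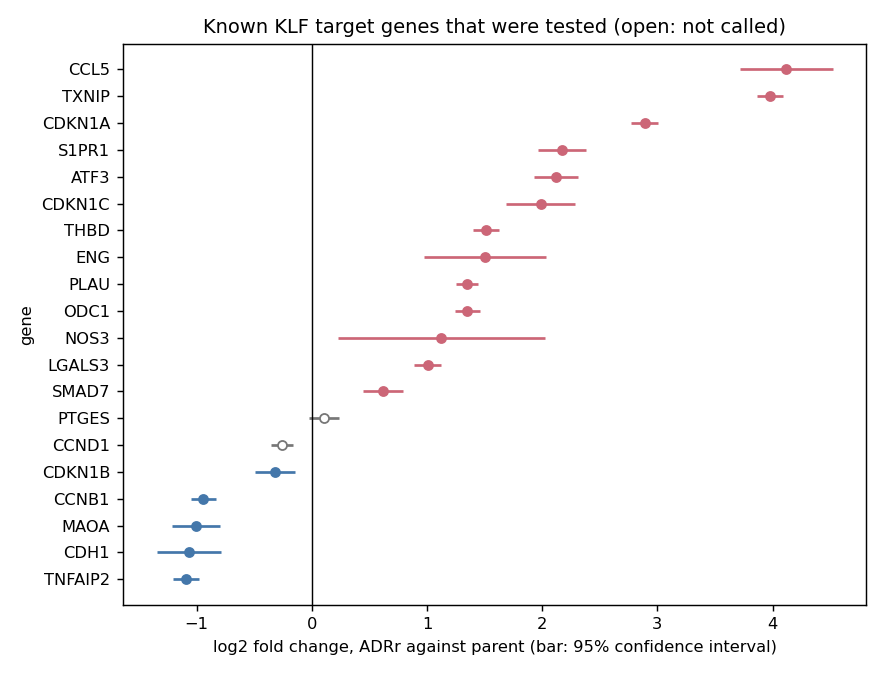
Log2 fold change in ADRr against parent cells with its 95% confidence interval (bars) for the 20 tested KLF target genes, in red where called higher, blue where called lower and open where not called. CCL5, TXNIP and CDKN1A lie furthest to the right, at 4.12, 3.98 and 2.89, and TNFAIP2 furthest to the left at -1.09.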

How the data were processed

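RNA of 3 parent and 3 ADRr libraries was analysed. According to the methods, polyadenylated RNA was made into CORALL libraries and sequenced as paired-end reads. Clean reads were mapped with HISAT2 (2.0.5) to GRCh38 and counted with featureCounts (1.5.0-p3; versions from the submitters' processing notes). The authors deposited 2 tables, the raw count of each gene in whole numbers and FPKM values derived from it. All 58735 identifiers are in GENCODE 29, and the positions of the 10 KLF genes are the same there.

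The count test was run with edgeR 4.0.16 under R 4.3.3 (filterByExpr, 15242 genes, TMM factors of 0.987 to 1.01, quasi-likelihood test, no block). Standard errors are the log2 fold change divided by the root of the F statistic. Groups were compared for overlap on TMM-normalized counts. FPKM values, as deposited, served to compare levels between genes. The reading of the study's threshold as a fold of 1.2 was kept, with a log2 of 1.2 as an alternative. Alternatives also used DESeq2 1.42.0 (the study's tool) and limma 3.58.1. The edgeR, DESeq2 and limma fits were tried on simulated data, and the other steps were not.

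The KLF genes, the lists and the named genes were chosen with earlier results of these data known. Named were all 10 KLF genes, every other tested KLF or SP gene, the 3 called genes with the largest change in each of 6 lists (corepressors and coactivators, protein turnover, ERK5 and MEF2, glucocorticoid, reprogramming partners, targets) and genes a result turned on. Other genes of these lists are named to describe each list and were chosen after their values were seen. A few genes of the target and marker lists are not reported here and were left out of the counts.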

Additional observations from a re-analysis of the deposited data

How the results depend on the processing

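The 18 alternatives were other scalings, tools, filters, pseudocounts, thresholds, a block and each library left out. With a single exception the same number of the 10 KLF genes, 7, was called higher, and in all of them 0 were called lower. That exception was a threshold of 1.2 on the log2 scale, where 4 KLF genes were called higher (KLF3, KLF4, KLF6 and KLF13), and over all tested genes 1114 were called higher and 972 lower in place of 4451 and 4507. With the replicate block 7 KLF genes, 4406 genes higher and 4464 lower were called. Deviations of same-numbered libraries correlated at -0.04 to 0.0049 between the groups, so the libraries share only a number. Of 150 values of the 10 KLF genes under 15 alternatives, 148 kept direction and call. The others were KLF2 without parent replicate 2 (-0.093) and without ADRr replicate 3 (-0.0035), a gene never called, and its range with 1 library left out was -0.093 to 0.081. A further alternative subtracted the median of the 50 nearest genes. It moved KLF2 (0.30), KLF4 (2.40), KLF6 (1.18), KLF10 (1.11) and KLF11 (0.45) by more than their spread, and turned the sign of KLF5 (-0.035), which was not called. KLF9 lay between 0.44 (limma-trend on log2(FPKM + 1), a scale that understates low genes) and 1.5. No other scaling moved the median of all tested genes by over 0.1. Single genes were followed for 35 genes only, the 10 KLF genes, the other tested KLF and SP genes and up to 3 genes from each list. Of their 522 values, 8 lost the call and 1 gained it, among KLF16, SP4, SP6 and FBXW7. Other genes named above, such as NOS3, SIAH1 and CREBBP, were not followed in this way. Low counts limit genes such as KLF9, KLF17, ENG and NOS3.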
